A study of Bos taurus with 38 samples.

Results

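ENSBTAG00000043570 and ENSBTAG00000043567 are the 2 genes with the largest share of counts in cattle cumulus cells, out of 27607 Ensembl identifiers counted in each library. They were chosen by their share of the counts of cumulus libraries, so their rank and their high level there, also relative to oocytes, are given as a description with no test. The tests concern BCB class, the library total and the ratios. Their mean shares over the 19 libraries there were 8.67% and 3.32%, and they held the 2 highest means in each BCB class. The genes after them differed by class. In BCB negative libraries the next was COX1, a subunit of cytochrome c oxidase, with a mean of 1.73%. In BCB positive libraries it was SRGN, which encodes the proteoglycan serglycin, with a mean of 0.659%, and COX1 stood at position 16 with 0.335%. The sources used here pair neither identifier with a symbol, a class of RNA or a position. Both numbers lie among those of the 13 protein-coding genes of mitochondrial DNA, which does not say what the genes are, and they are called by their identifiers throughout.

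The libraries came from 19 cumulus-oocyte complexes of *Bos taurus*, aspirated from the antral follicles of abattoir ovaries before maturation and all stained with brilliant cresyl blue (BCB), a dye that fully grown oocytes retain and growing oocytes reduce to a colourless form. Complexes with a blue ooplasm were BCB positive (n = 9) and those without were BCB negative (n = 10). Each complex gave 1 library from its oocyte and 1 from the group of cumulus cells around it, and the sources used here do not give the animal, its age or the number of cumulus cells. The complex numbers fall into 3 runs, with 3 BCB positive and 1 BCB negative complexes in numbers 6 to 24, 6 and 3 in 65 to 74, and 0 and 6 in 86 to 91.

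Mitochondrial DNA encodes 13 proteins of the respiratory chain and ATP synthase, together with ribosomal and transfer RNAs. Both strands are transcribed as long precursors that are cut into the separate RNAs, and most of the messenger RNAs among them receive short poly(A) tails. In the ovary the growing oocyte accumulates mitochondria, and cumulus cells supply it with metabolites through gap junctions.

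Library totals ran from 1103200 to 10430148 counts in cumulus cells and from 8886070 to 29810354 in oocytes. Of 10 oocyte markers only ZP2 and ZP3, genes of the zona pellucida, were matched to an identifier, and their sum was 2713 to 5051 CPM, which are counts scaled to a common library total, in oocytes and 0 to 65.3 in cumulus cells. Of 10 cumulus and granulosa markers, 9 were matched, with a sum of 4131 to 24792 CPM in cumulus cells and 65.3 to 2389 in oocytes. The oocyte of complex 72 had the highest sum, and without it the oocytes reached 549.5 CPM, in complex 88. The theca and endothelium lists had 0 genes with a symbol. Of the blood and immune list HBA alone was matched, at 0.265 to 573 CPM in cumulus cells and 3.42 to 214 CPM in oocytes.

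The shares of both genes in cumulus cells were higher around BCB negative than around BCB positive oocytes. ENSBTAG00000043570 took from 1.63% to 5.47% of the counts of BCB positive cumulus libraries, with a median of 2.74%. In BCB negative cumulus libraries it took from 2.39% to 26.9%, with a median of 14.8%. The ranges overlapped, because the BCB negative complexes 88 and 89, at 5.36% and 2.39%, lay within the BCB positive range and the other 8 lay above it. The mean log2 share was lower by 1.91 in BCB positive libraries, which is a 3.75-fold difference (exact permutation test over 92378 splits, two-sided, p = 0.000552, adjusted p = 0.00221 over 12 shares and ratios).

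ENSBTAG00000043567 took from 0.632% to 2.04% of the counts of BCB positive cumulus libraries, with a median of 1.05%, and from 1.00% to 11.1% in BCB negative ones, with a median of 4.98%. The same 2 BCB negative complexes, 88 and 89, fell within the BCB positive range. Its log2 share was lower by 1.87 in BCB positive libraries, which is 3.66-fold (exact permutation test, p = 0.000487, adjusted p = 0.00221). Together the genes took from 2.26% of the counts, in complex 72, to 37.99%, in complex 68. Counting error was small beside these differences, since the widest 95% Wilson interval of a share in cumulus cells spanned 0.166 percentage points, which covers counting error only. In libraries of this kind fewer cells and less RNA per cell cannot be told apart. The summed cumulus and granulosa markers had medians of 12738 CPM in BCB positive and 6800 CPM in BCB negative cumulus cells. The total that CPM divides by holds the counts of these genes, and counted against the genes outside the 2 and the 13 of mitochondrial DNA the medians were 13402 and 11089, with ranges of 9159 to 25652 and 5690 to 15211 that overlapped. The summed ZP2 and ZP3 were at 0 to 1.37 CPM (median 0.219) in BCB positive and 0.259 to 65.3 CPM (median 3.69) in BCB negative cumulus libraries. The highest sums of the oocyte markers were in complexes 66, 68 and 65, at 65.3, 48.04 and 7.87 CPM, and these libraries held 15.8%, 26.9% and 19.8% on ENSBTAG00000043570. Complexes 86 and 91, which held 15.8% and 17.9%, had sums of 5.13 and 5.54 CPM. Complex 17, with the highest share of the BCB positive libraries, had 0 CPM. No relation of these sums to the shares was computed. The part of either marker list in the result was not tested.

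**Figure D1:**
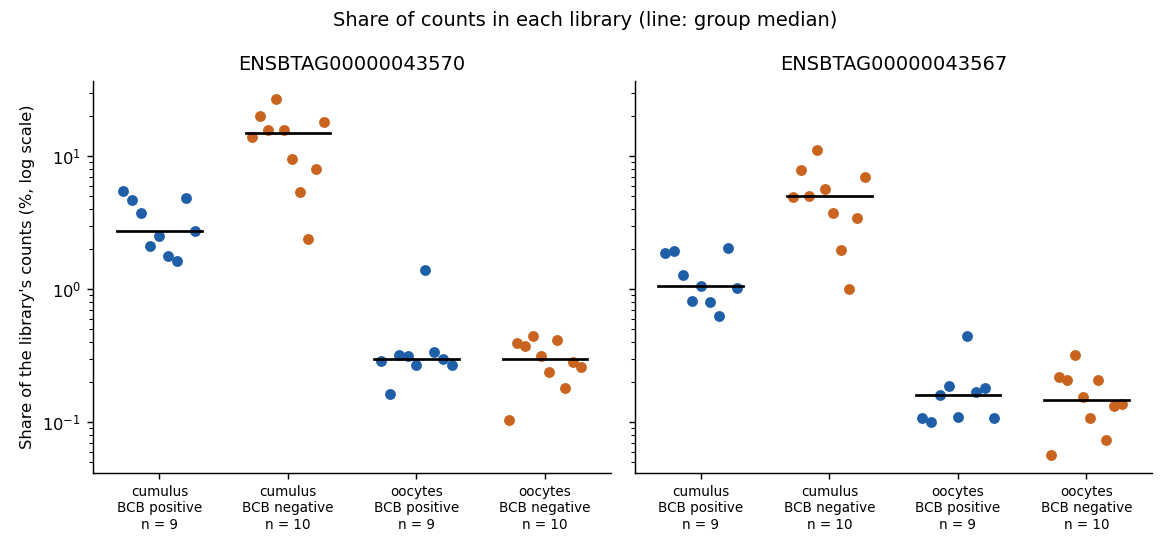
Share of the library's counts (percent, log scale) on each of the 2 genes in each library, by compartment and BCB class, with each point a library and the line the group median. In cumulus cells the medians were 2.74% and 14.8% for ENSBTAG00000043570, and in oocytes 1 BCB positive library, complex 71, stands above the others at 1.39%.

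The oocyte of the same complex had lower shares of both genes than its cumulus cells in all 19 complexes. In BCB positive oocytes ENSBTAG00000043570 took from 0.163% to 1.39% of the counts, with a median of 0.298%. In BCB negative oocytes it took from 0.103% to 0.446%, with a median of 0.297%. ENSBTAG00000043567 took from 0.10% to 0.440% in BCB positive and from 0.0566% to 0.318% in BCB negative oocytes, with medians of 0.158% and 0.146%. The groups overlapped, and the highest value of both genes was that of complex 71. All other BCB positive oocytes lay within the BCB negative range.

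Between the BCB classes of oocytes the log2 share differed by 0.25 for ENSBTAG00000043570 (adjusted p = 0.689, exact permutation test) and by 0.10 for ENSBTAG00000043567 (adjusted p = 0.812, exact permutation test), each higher in BCB positive. Both signs turned without complex 71, to -0.0043 and -0.089, and that of ENSBTAG00000043567 also turned without complex 6 and without complex 89. The share in cumulus cells was 1.27 to 134 times the share in the oocyte for ENSBTAG00000043570, with a median of 19.2, and 1.81 to 87.2 times for ENSBTAG00000043567, with a median of 17.3. The lowest multiples of both came from complex 71 and the highest from complex 6. The median multiple of ENSBTAG00000043570 was 10.2 in BCB positive and 46.5 in BCB negative complexes.

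The ranks are given as a description, since genes chosen as the largest of cumulus cells tend to rank lower elsewhere. ENSBTAG00000043570 was the largest gene in all 19 cumulus libraries and in 5 of 19 oocyte libraries, where its rank fell as low as 40. ENSBTAG00000043567 was among the 2 largest genes in 18 cumulus libraries and ranked between 2 and 161 in oocytes. By mean share ENSBTAG00000043570, at 0.350%, was still the first gene of oocytes, just above ACCSL at 0.346% ± 0.0565 (SD, n = 19) and UBB, a ubiquitin gene, at 0.30% ± 0.0758 (SD, n = 19). Its own SD was 0.266, and complex 71 alone lay above 0.446%, so the order of these genes was within their spread. ENSBTAG00000043567 had rank 14 by mean share in oocytes.

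In cumulus cells the shares followed the size of the library. The 3 smallest libraries, complexes 68, 66 and 65 with 1103200, 1624128 and 1650795 counts, held 26.9%, 15.8% and 19.8% on ENSBTAG00000043570. The 3 largest, complexes 71, 72 and 70 with 10430148, 9285706 and 9132666 counts, held 1.77%, 1.63% and 2.52%. All of the former were BCB negative and all of the latter BCB positive. The median total was 2252271 counts in BCB negative and 5853816 in BCB positive cumulus libraries.

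Over the 19 cumulus libraries the log2 share of ENSBTAG00000043570 fell with the log10 library total, with Pearson's r = -0.964 and Spearman's rho = -0.937. Both p were 1e-05, the smallest that 100000 permutations can give, and both adjusted p were 2e-05 over 14 relations. For ENSBTAG00000043567 r was -0.949 and rho -0.919, with the same p values. With the 2 most extreme totals left out, r was -0.956 and -0.939. The total is the denominator of the share, so part of such a relation is built in, and the counts themselves are given further down.

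The relation was also present within each BCB class. For ENSBTAG00000043570, r was -0.958 in the 9 BCB positive libraries (adjusted p = 0.00131, exact permutation test) and -0.948 in the 10 BCB negative ones (adjusted p = 0.000168, permutation test). Within complexes 65 to 74 it was -0.991 (n = 9, adjusted p = 0.000218, exact permutation test). Complexes 86 to 91 were all BCB negative, and among them r was -0.972 (n = 6, adjusted p = 0.00778, exact permutation test), as their totals rose from 2164674 counts in complex 91 to 8013318 in complex 89 while the share went from 17.9% to 2.39%. For ENSBTAG00000043567 the values in these subsets ran from -0.918 to -0.981. Of the 4 complexes numbered 6 to 24, for which no coefficient was computed, the share was 13.8% at 1772144 counts, 5.47% at 3585944, 4.68% at 3778926 and 3.71% at 5305541, again lower at each larger total.

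**Figure D2:**
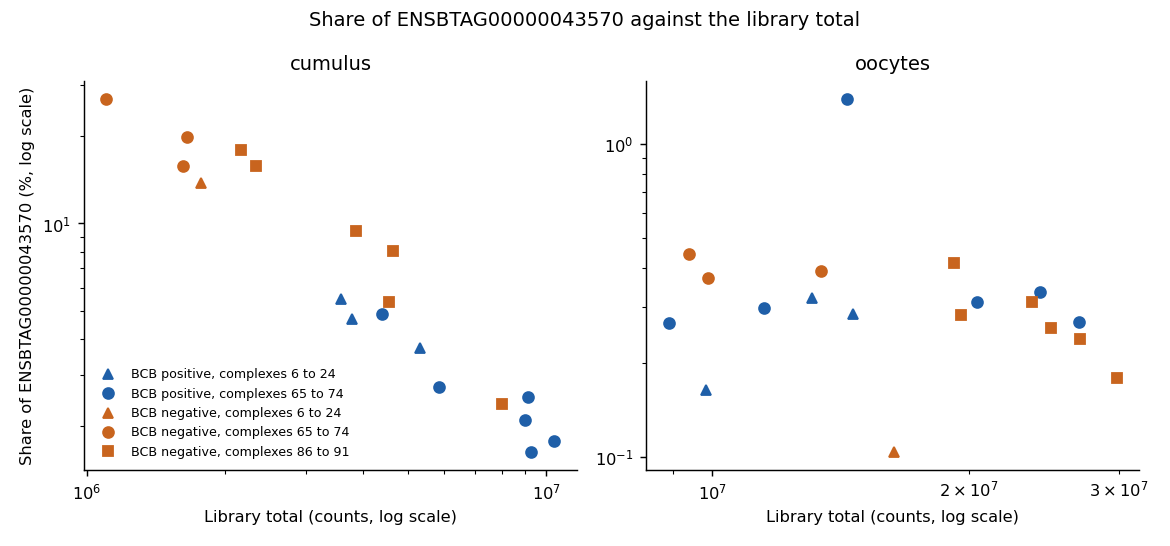
Share of ENSBTAG00000043570 (percent, log scale) against the library total (counts, log scale) in cumulus cells and oocytes, with colour for BCB class and shape for the run of complex numbers. In cumulus cells the points of both classes and of all 3 runs descend with the total. Between 3000000 and 6000000 counts the 3 BCB negative libraries lie at 5.36% to 9.46% and the 5 BCB positive ones at 2.74% to 5.47%. In oocytes no such descent is seen over all 19 libraries (r = -0.177).

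The BCB difference was smaller among cumulus libraries of like size. In the 8 libraries with totals between 3000000 and 6000000 counts, the 5 BCB positive ones held 5.47%, 4.68%, 3.71%, 4.86% and 2.74% on ENSBTAG00000043570 (complexes 17, 19, 24, 73 and 74). The 3 BCB negative ones, complexes 87, 88 and 90, held 9.46%, 5.36% and 8.05%. The log2 difference was -0.83, or 1.78-fold, against the 3.75-fold of all libraries (exact permutation test, p = 0.0357, adjusted p = 0.107 over 6). The smallest p of this design is 0.0179, and the range of sizes was chosen after the data were seen. For ENSBTAG00000043567 the difference was -0.89, or 1.85-fold (exact permutation test, p = 0.0536, adjusted p = 0.107).

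Within complexes 65 to 74 the classes did not overlap. The 6 BCB positive libraries held 1.63% to 4.86% on ENSBTAG00000043570 and the 3 BCB negative ones 15.8% to 26.9%, an 8.39-fold difference (exact permutation test, p = 0.0119, the smallest this design allows, adjusted p = 0.0357). Their totals did not overlap either, at 4386946 to 10430148 and 1103200 to 1650795 counts, so that the class and the library size cannot be told apart in this run. In complexes 6 to 24 the single BCB negative library held 13.8% of 1772144 counts and the 3 BCB positive ones 3.71% to 5.47% of 3585944 to 5305541 counts.

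The raw counts of the genes spanned a smaller range than the library totals. ENSBTAG00000043570 had between 150956 and 387753 counts in cumulus libraries, a 2.57-fold range, and ENSBTAG00000043567 between 58678 and 157904, a 2.69-fold range, whereas the totals spanned a 9.45-fold range. The SD of the log2 raw counts was 0.44 and 0.46 for the genes, against 0.98 for the totals and a median of 1.40 over the 12313 genes that passed the filter on low counts. Of those genes, 3 and 4 had a lower SD than ENSBTAG00000043570 and ENSBTAG00000043567. Since many of them have low counts, the 100 with the largest mean share outside these genes and the 13 were also taken, and their median SD was 1.24, with 2 of them below each of the genes. Duplicate reads had been removed before counting, which can limit the counts of abundant genes, and the part of that step in these values was not tested.

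The direction also differed from that of most genes. Per unit of log10 library total the log10 raw counts of ENSBTAG00000043570 changed by -0.277 and those of ENSBTAG00000043567 by -0.226, with r of -0.617 and -0.485 over 19 libraries, and the median gene changed by 1.32. The median of the 100 abundant genes was 1.197, with 0 of them negative. A negative slope was found for 75 of the 12313 genes, and these included both genes and all 13 protein-coding genes of mitochondrial DNA, whose slopes ran from -0.468 for ND6, a complex I subunit, to -0.200 for COX1. In oocytes the slopes were 0.775 and 0.627, beside a median of 1.06 over 12753 genes, 8 of which had a negative slope.

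In raw counts, too, the cumulus cells of the BCB classes differed. ENSBTAG00000043570 had 150956 to 229689 counts in BCB positive libraries, with a median of 189637, and 191726 to 387753 in BCB negative ones, with a median of 312058. The log2 difference was -0.67, smaller than the -1.91 of the shares (exact permutation test, p = 0.000206, adjusted p = 0.00123). For ENSBTAG00000043567 it was -0.64 (exact permutation test, p = 0.00117, adjusted p = 0.00468). This comparison without division by the total was added after the data were seen.

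**Figure D3:**
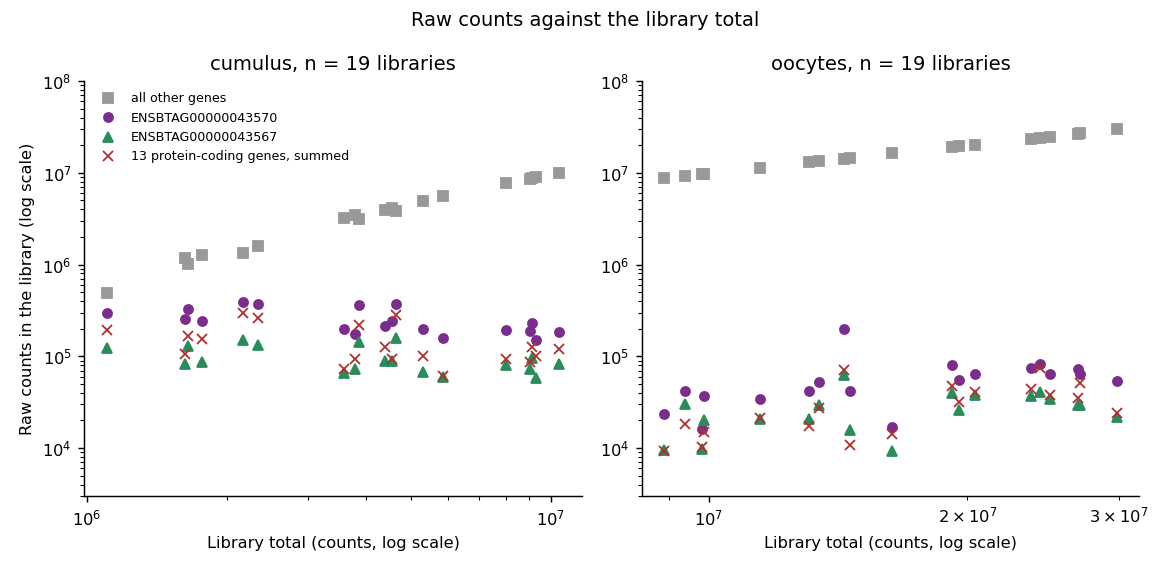
Raw counts (log scale) of each gene, of the 13 protein-coding genes of mitochondrial DNA summed and of all other genes, against the library total (counts, log scale), with each point a library. In cumulus cells the counts of ENSBTAG00000043570 stay between 150956 and 387753. Those of all other genes climb with the total, which is in part built in, since they are a large part of it.

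edgeR's quasi-likelihood test, with TMM scaling and an FDR threshold of 0.01, placed both genes higher in cumulus cells around BCB negative oocytes. The log2 fold change, BCB positive minus BCB negative, was -2.73 (SE 0.465, FDR 0.0065) for ENSBTAG00000043570 and -2.72 (SE 0.465, FDR 0.0065) for ENSBTAG00000043567. It was called for 69 of the 12313 genes tested (0.560%), with 64 higher in BCB negative (0.520%) and 5 higher in BCB positive (0.0406%). Without TMM both genes were still called, at -2.05 and -2.03, but the split over all genes turned to 103 higher in BCB negative and 1601 higher in BCB positive, and the median log2 fold change of all genes moved from -0.01 to 0.46. DESeq2 called both genes, each at -2.75 (FDR 7.44e-09), among 365 genes called. The likelihood-ratio test of edgeR without TMM called them at -2.05 and -2.03 (FDR 2.78e-06 and 2.54e-06), among 2480 genes called.

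The estimates moved with the covariate, and the call was lost with the library total. With the log10 total as a covariate the estimates were -0.82 (SE 0.23, unadjusted p = 0.00168, FDR 0.226) and -0.87 (SE 0.259, unadjusted p = 0.00277, FDR 0.242), and 2 genes were called in all. With the run of complex numbers as a covariate they were -3.51 (SE 0.501, FDR 0.00104) and -3.45 (SE 0.507, FDR 0.00104), among 115 genes called. Leaving out 1 library at a time in the quasi-likelihood fit moved the FDR of both genes between 0.000446 and 0.0192, with estimates from -2.89 to -2.44 for ENSBTAG00000043570. The FDR rose above 0.01 when any 1 of the complexes 6, 17, 19, 24, 65, 69, 70, 71, 72, 74, 86 or 91 was left out, and 6 to 20 genes were called in all in these 12 fits. In the other 7 fits both genes stayed called, among 27 to 158 genes, with the most when complex 89 was left out.

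In oocytes no gene was called by edgeR out of 12753 tested (0%), with 711 genes at an unadjusted p under 0.05 and 1 gene called by DESeq2. ENSBTAG00000043570 had a log2 fold change of 0.43 (SE 0.339, FDR 0.91) and ENSBTAG00000043567 one of 0.09 (SE 0.313, FDR 0.981). Without complex 71 these were -0.09 and -0.22, and without complex 6 the estimate of ENSBTAG00000043567 was -0.01.

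The BCB difference itself differed between the compartments in the edgeR fit over all 38 libraries. The interaction, the log2 fold change in cumulus cells less that in oocytes, was -3.20 (SE 0.576, FDR 0.00238) for ENSBTAG00000043570 and -2.85 (SE 0.555, FDR 0.00296) for ENSBTAG00000043567, among 54 genes called of 10281 (0.525%), of which 52 were lower in cumulus cells (0.506%). With a replicate block for the complex that both libraries came from, the values were -2.69 (FDR 0.0587) and -2.53 (FDR 0.0514), and 2 genes were called, so neither gene passed the threshold in the paired fit. The interaction was not fitted with the log10 total as a covariate, which in cumulus cells alone moved the estimates to -0.82 and -0.87.

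The protein-coding genes of mitochondrial DNA showed the same direction in cumulus cells. Of these 13 genes 11 were called higher in BCB negative, against 0.520% of all genes tested, and 0 higher in BCB positive, with a median log2 fold change of -3.06 against -0.01 over all genes tested. COX1 was at -3.05 (SE 0.451, FDR 0.00272), and ND3, of complex I, had the lowest estimate, -3.37 (SE 0.575, FDR 0.0065). With the log10 total as a covariate 0 of the 13 were called, and in the 12 fits without the libraries named above 0 to 4 of them were. In the other 7 fits that left out a library 8 to 13 were called. All 13 were called with DESeq2, among 365 genes, and with the run of complex numbers as a covariate, among 115. The 2 not called in the main fit, COX3 and CYTB, the cytochrome b of complex III, had estimates there of -2.67 (FDR 0.0114) and -2.65 (FDR 0.0136). In oocytes 0 of 13 were called in either direction, and the median was 0.33, with estimates from -0.25 for COX1 to 0.71 for ATP8, an ATP synthase subunit. All 15 genes share the cumulus libraries and their totals, so they are not independent of each other.

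**Figure D4:**
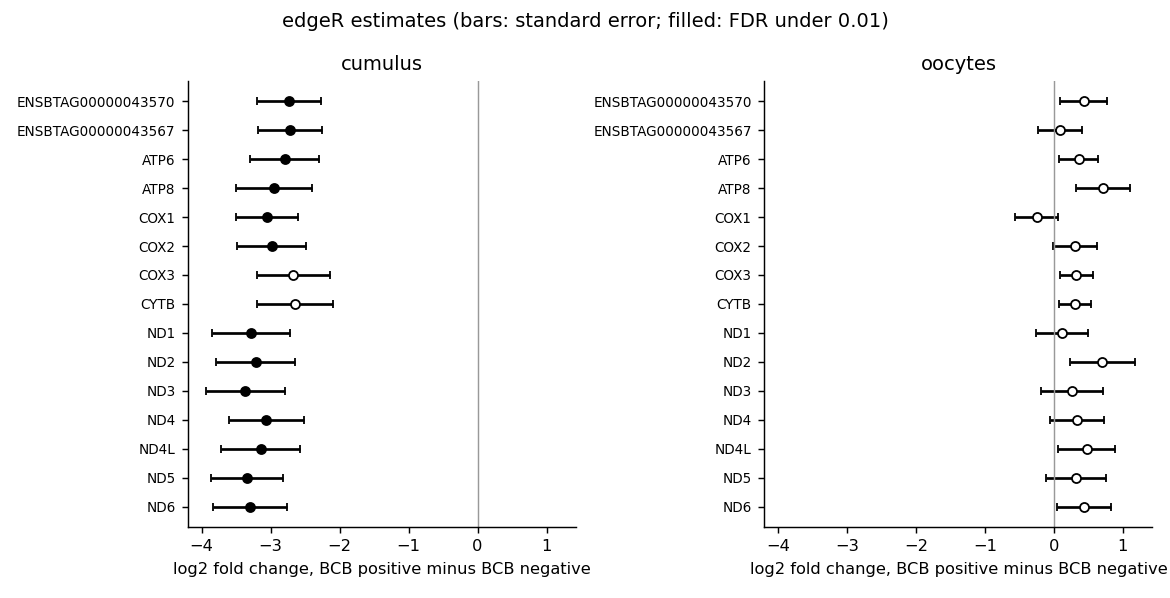
edgeR log2 fold changes, BCB positive minus BCB negative, of the 2 genes and the 13 protein-coding genes of mitochondrial DNA, with standard errors as bars and filled points for an FDR under 0.01. In cumulus cells all 15 estimates lie between -3.37 and -2.65, and in oocytes none is filled.

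Nuclear genes that serve mitochondria were set beside a background in which 0.560% of all genes tested in cumulus cells were called and 18.7% had an unadjusted p under 0.05. At that background few or no calls would be found in lists of this size, so the counts are not a result about these genes. Of 29 mitochondrial ribosomal proteins tested in cumulus cells 0 passed the threshold, with 10 at an unadjusted p under 0.05, and their median log2 fold change was 0.29. MRPS2, of the small mitochondrial ribosomal subunit, had the lowest p, at 0.55 (SE 0.16, FDR 0.063). Of 22 nuclear subunits of the respiratory chain 0 passed, with 1 at an unadjusted p under 0.05, a median of 0.17 and the lowest p for NDUFS6, of complex I, at 0.33 (SE 0.151, FDR 0.234). Of 13 genes of mitochondrial transcription and RNA handling 0 passed, with 1 at an unadjusted p under 0.05, a median of 0.22 and the lowest p for DHX30, an RNA helicase of mitochondria, at 0.39 (SE 0.129, FDR 0.0931). In oocytes, where 0 of all genes tested were called, the medians of the 3 lists were 0.04, 0.07 and 0.10. DESeq2 was not summarised over these lists, which hold only the members with a symbol in the sources used here.

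Relative to the 13 protein-coding genes, each gene differed between the BCB classes of cumulus cells by less than the spread among libraries. ENSBTAG00000043570 had from 1.49 to 2.67 counts per count of the 13 genes in BCB positive cumulus libraries, with a median of 1.87, and from 1.32 to 2.60 in BCB negative ones, with a median of 1.63. The log2 difference was 0.16 (adjusted p = 0.598, exact permutation test). ENSBTAG00000043567 had from 0.578 to 0.977 and from 0.509 to 0.949 counts per count of the 13 genes, a log2 difference of 0.19 (adjusted p = 0.47, exact permutation test). Over the 19 libraries these ratios spanned 2.02-fold and 1.92-fold, while the shares of the genes spanned 16.6-fold and 17.5-fold.

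In oocytes ENSBTAG00000043570 had from 1.10 to 3.83 counts per count of the 13 genes, with the highest in complex 17, and ENSBTAG00000043567 from 0.548 to 1.63. Between the BCB classes of oocytes the log2 differences were 0.20 (adjusted p = 0.598, exact permutation test) and 0.05 (adjusted p = 0.812, exact permutation test). Within complexes 65 to 74 the latter was -0.66, with the 6 BCB positive oocytes at 0.548 to 1.03 and the 3 BCB negative ones at 1.09 to 1.63 (exact permutation test, p = 0.0119, the smallest this design allows, adjusted p = 0.0357). That difference had the opposite sign to the one over all 19 oocytes.

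Across libraries both genes moved with the 13 genes, in counts per count outside the 15 genes. In cumulus cells r was 0.983 for ENSBTAG00000043570 and 0.988 for ENSBTAG00000043567, with rho of 0.949 and 0.970 (permutation test, p = 1e-05, adjusted p = 2e-05). In oocytes r was 0.799 (adjusted p = 9.33e-05, permutation test) and 0.827 (adjusted p = 7e-05, permutation test), with rho of 0.742 and 0.835. Without the 2 libraries farthest from the median of the 13 genes, r in cumulus cells was 0.975 and 0.983 and in oocytes 0.755 and 0.763. Raw counts, which share no denominator, gave 0.90 and 0.933 in cumulus cells and 0.872 and 0.899 in oocytes. In counts per count outside the 15 genes, the lowest r within a BCB class was 0.791, for ENSBTAG00000043570 in BCB positive oocytes (adjusted p = 0.0166, exact permutation test).

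By this measure each of the genes was the one most like the other, among all genes tested in each compartment (r = 0.997 in cumulus cells and 0.923 in oocytes). In cumulus cells the genes next most like ENSBTAG00000043570 were ND6 (0.986), ATP6 (0.982), ENSBTAG00000048925 (0.981) and ND3 (0.981), and 7 of the 13 protein-coding genes were among the 15 most alike. Next to ENSBTAG00000043567 stood ND6 (0.989), ND3 (0.988), ATP6 (0.987) and ATP8 (0.983), and 11 of the 13 were among the 15 most alike. In oocytes ATP8 (0.870) and ND3 (0.849) came first after the partner for ENSBTAG00000043570, followed by FADD (0.836), an adaptor of death receptors, and ND3 (0.850) came first for ENSBTAG00000043567. Of the 13 protein-coding genes 6 and 7 were among the 15 most alike in oocytes, and the least alike of them stood at position 171 (0.569) for ENSBTAG00000043570 and 640 (0.50) for ENSBTAG00000043567. These coefficients are over 19 libraries that share a denominator and are given as a description.

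The ratio of the 2 genes to each other was steady in cumulus cells. ENSBTAG00000043570 had from 2.22 to 3.14 counts per count of ENSBTAG00000043567 over the 19 cumulus libraries, with a mean of 2.60 ± 0.239 (SD, n = 19). The BCB classes had medians of 2.57 in BCB positive and 2.55 in BCB negative, and the log2 difference was -0.03 (adjusted p = 0.689, exact permutation test). The lengths of the genes are not given in the sources used here, so this is a ratio of counts and not of molecules.

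In oocytes the ratio was lower and more spread. It ran from 1.40, in complex 68, to 3.16, in complex 71, with a mean of 2.07 ± 0.425 (SD, n = 19). The BCB positive oocytes had a median of 2.03 and the BCB negative ones 1.95, with a log2 difference of 0.15 (adjusted p = 0.595, exact permutation test). Paired by complex, the log2 ratio was lower in the oocyte by a mean of 0.35, which is 0.785 of the ratio in cumulus cells (SD 0.325, n = 19, permutation test with 100000 sign flips, p = 0.00036). It was lower in the oocyte in 16 of 19 complexes.

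The BCB positive complexes alone, of which 7 of 9 were lower in the oocyte, gave a mean of -0.25 (exact permutation test, p = 0.0703). The BCB negative complexes alone, of which 9 of 10 were lower, gave -0.44 (permutation test, p = 0.00406). The difference between these classes was not tested. Without complex 71, the one with the largest rise, the mean over 18 complexes was -0.40 (permutation test, p = 2e-05).

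**Figure D5:**
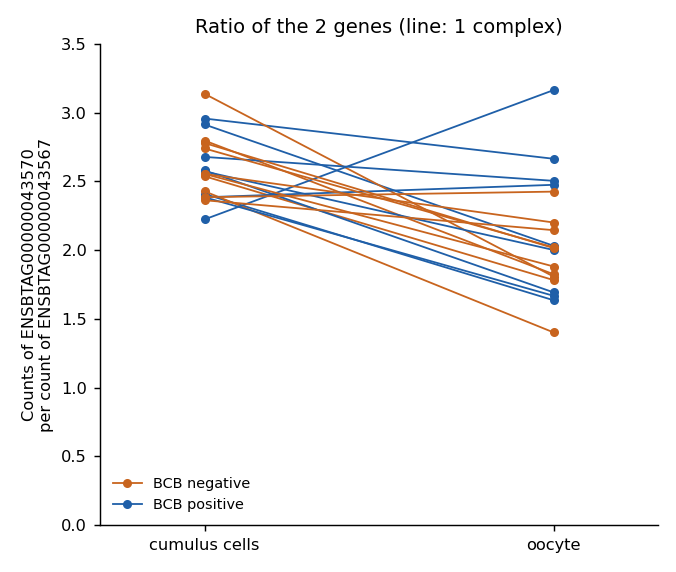
Counts of ENSBTAG00000043570 per count of ENSBTAG00000043567 in the cumulus cells and the oocyte of each complex, with each line a complex and colour for BCB class. The ratio lies between 2.22 and 3.14 in cumulus cells and between 1.40 and 3.16 in oocytes, and 16 of 19 lines descend.

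No relation was detected between the share of a gene in an oocyte and its share in the cumulus cells of the same complex. For ENSBTAG00000043570 r was -0.163 and rho 0.0263 (n = 19, permutation test, adjusted p = 0.611 and 0.916). For ENSBTAG00000043567 r was 0.0675 and rho 0.146 (n = 19, permutation test, adjusted p = 0.785 and 0.643). Nor was one detected between the share in oocytes and the oocyte's own library total over all 19 libraries, with r = -0.177 and -0.307 (permutation test, adjusted p = 0.611 and 0.281), although within complexes 86 to 91, which are all BCB negative, r was -0.865 and -0.827 (n = 6, exact permutation test, adjusted p = 0.0389 and 0.0495).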

How the data were processed

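RNA was measured in 38 libraries, 1 from the oocyte and 1 from the cumulus cells of each of 19 complexes, made from oligo-dT primed full-length cDNA. The deposited values are raw counts per Ensembl gene. Per the paper's methods and the submitters' processing notes, the authors aligned reads to ARS-UCD1.2 with HISAT2 2.1.0, removed duplicate reads and counted with featureCounts 1.6.0 on Ensembl release 98. The counts are therefore of distinct fragments, and how far removal of duplicates lowered the counts of abundant genes cannot be read from them.

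Groups came from the labelled BCB class and tissue, and complex numbers from the titles. Members and lists were chosen with earlier results of these data known. Named genes were the 2 genes, the 13 protein-coding genes of mitochondrial DNA, the 5 with the largest mean share per compartment, the 5 most alike each of the 2 (at most 2 further identifiers without a symbol), and of each list the genes past the threshold or else the one of lowest p. Symbols for 4934 identifiers came from gene tables of the study.

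A gene was tested where 9 or more of the 19 libraries had over 2 CPM, with edgeR 4.0.16 (quasi-likelihood, TMM, Benjamini-Hochberg FDR 0.01) in R 4.3.3, with DESeq2 1.42.0 as an alternative. The fits were tested on simulated data. Shares, per count of the library, and ratios were compared on the log2 scale with exact permutation tests, and relations with 100000 permutations, or all of them under 10 libraries (Python 3.11.15, scipy 1.17.1). Likeness added 0.5 to each count. Alternatives were other scalings, filters, tools, covariates, denominators and subsets, and leaving out each library. Oocyte and cumulus libraries of a number come from the same complex, which pairs them; the correlation of their deviations from the group means over 10281 genes had a median of 0.0773 and exceeded 0.1 in 5 of 19 pairs. No library was identical to another.

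The separate complexes are the replicates, and whether several came from 1 animal is not given in the sources used here. Totals ran from 1103200 to 29810354 counts.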

Additional observations from a re-analysis of the deposited data

Results flagged for a closer look

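The oocyte of complex 71, BCB positive, stood apart from the other 8 oocytes of its class by Dixon's criterion in 3 measures. Its share of ENSBTAG00000043570 was 1.39%, with the next highest at 0.337%, and its share of ENSBTAG00000043567 was 0.440%, with the next highest at 0.185%. Its raw counts of ENSBTAG00000043570 were 200188, with the next highest at 81637. Its 13 protein-coding genes took 0.498% of the counts, the highest of all oocytes, its summed cumulus and granulosa markers were at 121 CPM, the median of all oocytes, and its total was 14370653 counts. The criterion was applied 28 times, and chance flags about 1 in 20.

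The BCB difference of both genes differed between cumulus cells and oocytes in the unpaired edgeR fit, with interactions of -3.20 for ENSBTAG00000043570 and -2.85 for ENSBTAG00000043567. The paired fit did not pass the threshold for either gene, and neither fit had the library total as a covariate.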

How the results depend on the processing

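In cumulus cells the shares, the ratios, the relations to the library total and the relations to the 13 genes kept their direction under the alternatives run, except for the values given here. The cause of a change was not tested.

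Between 69 genes called in cumulus cells and the alternatives, the count was 360 at an FDR of 0.05, 365 with DESeq2, 1704 with library totals without TMM, 2480 with the likelihood-ratio test without TMM, 164 with no filter, 115 with the run as covariate and 2 with the log10 total as covariate. With that last covariate the estimates were -0.82 for ENSBTAG00000043570 and -0.87 for ENSBTAG00000043567, past the threshold in neither. DESeq2 called 1 gene in oocytes. The interaction gave 666 calls without TMM. With the replicate block it gave 2, with -2.69 and -2.53 for the genes. The ratio between compartments has p = 2e-05 with no replicate block (permutation test). The pairing was varied only for the interaction and this ratio. In oocytes ENSBTAG00000043567 was at -0.049 with the run as covariate.

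Leaving out 1 library moved the calls in cumulus cells from 6, without complex 24, to 158, without complex 89. In oocytes it moved the difference in log2 share of ENSBTAG00000043570 from -0.0043 to 0.38, of ENSBTAG00000043567 from -0.089 to 0.23 and of both from -0.031 to 0.32, with the lowest of each without complex 71. The ratio of ENSBTAG00000043567 to the 13 genes in oocytes moved from -0.030 to 0.15. The edgeR estimates in oocytes moved from -0.093 to 0.53 and from -0.22 to 0.26, and in cumulus cells from -2.89 to -2.44 and from -2.86 to -2.39.

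Raw counts not divided by the total, added after the data were seen, gave differences in oocytes of -0.019, -0.17 and -0.065 for ENSBTAG00000043570, ENSBTAG00000043567 and both. Complexes 65 to 74 alone gave -0.069, -0.48 and -0.20 for these, and for the ratios to the 13 genes -0.070 for ENSBTAG00000043570 in cumulus cells and -0.25 and -0.66 in oocytes. Libraries of like size in cumulus cells gave -0.83, -0.89 and -0.85 for the shares and 0.061 for the ratio of the genes, with 8 libraries and none past the threshold. That ratio differed by 0.010 as a difference of medians. The ratio between compartments was -0.25 in BCB positive complexes alone.

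Relations in oocytes turned sign where r over all 19 was weak. For the share against the total r was 0.14 and 0.13 within BCB positive. Within complexes 86 to 91, added after the data were seen, it kept its sign and was stronger, at -0.86 and -0.83. For the 13 genes it was -0.25 within BCB negative and -0.69 within complexes 86 to 91. For the share in oocytes against that in cumulus cells, r was 0.31 and 0.35 for ENSBTAG00000043570 within BCB negative and within complexes 86 to 91, and for ENSBTAG00000043567 it was -0.46 within BCB positive and -0.23 with the 2 most extreme complexes left out.

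The counting intervals of the shares were narrow beside the spread between libraries. They cover counting error only and say nothing of the relation of the cumulus shares to the library total.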
